A study of Mus musculus with 16 samples.

Results

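Wnt ligands such as Wnt4 bind frizzled receptors such as Fzd2 together with a co-receptor, which stabilises beta-catenin inside the cell and switches on target genes. Cyclin D1 (Ccnd1), which drives cells into the division cycle, is a classical target, and Nkd2 is an intracellular inhibitor that acts on Dishevelled. In bone, Wnt signalling in osteoblasts and osteocytes promotes bone formation and is part of the response to mechanical load. The 5 rows Fzd2, Wnt4, Nkd2, Ccnd1 and Oraov1 were followed here, out of 47517 rows in the count files. Fzd2 and Oraov1 were chosen on their difference between genotypes in these same data, so their genotype values are given as a description without a test. Wnt4, Nkd2 and Ccnd1 were chosen for their place in the pathway, with earlier results of these data known. Oraov1, named LTO1 in GENCODE, encodes an adaptor for iron-sulphur protein assembly and lies opposite Ccnd1, which placed it among these rows.

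The libraries are total RNA of tibial cortical bone from 8 males at an age of 16 weeks; 4 carry the label Ctrl and 4 the label NT3-Cre+, written NT3 from here on. The series title concerns activation of the kinase NIK, encoded by Map3k14, in bone-forming lineage cells. For the allele behind NT3, the Cre driver and the Ctrl genotype, the sources used here give no information. The right tibia of every mouse was compressed on 9 days with 1200 cycles a day, to a peak of 8.7 N in Ctrl and 10.0 N in NT3, both set to reach -2000 microstrain. The left tibia received no load. Both bones were collected 4 hours after loading ended, with muscle stripped and marrow spun out. There were therefore 4 groups of 4 libraries, with 758394 to 1064391 counted fragments in a library. Levels are in CPM, counts scaled to library size with TMM factors.

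Row names need care in this series. Of 1240 placed rows averaging at least 100 fragments, 88.0% overlapped exons of an opposite-strand gene, against 15.3% of 44509 other placed rows. Rows of usually abundant genes were low, with 11 to 33 fragments for Actb in a library. Map3k14 held 1 to 9 fragments, too few to check the genotype labels. The sources used here do not state the strand setting of the counting, so a row may hold fragments of the opposite strand, and where a gene lies opposite, both names are given. The 6 osteocyte marker rows read by name, Sost and Dmp1 among them, all held fragments and summed to 140 to 313 CPM in a library. Rows opposite muscle genes (3) summed to 790 to 9900 CPM, a wide range within groups. In bulk bone, fewer cells of a type and less RNA per cell cannot be told apart.

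The Fzd2 row is the receptor row. Fzd2 is a single-exon gene of 3663 bases at chr11:102604396-102608058 on the plus strand (GRCm38, GENCODE M21), and no annotated gene lies opposite it. Frizzled receptors are similar in sequence, so the stretches around the longest runs that Fzd2 coding sequence shares with other frizzled genes are shown. Each has the length of 1 sequencing read (75 bases). Windows with the fewest differences were not searched for. Capitals mark the longest run shared without a difference, 47 bases with Fzd1 and 38 bases with Fzd7. The first pair is chr11:102605726-102605800 on the plus strand and chr5:4756317-4756391 on the minus strand.
Fzd2: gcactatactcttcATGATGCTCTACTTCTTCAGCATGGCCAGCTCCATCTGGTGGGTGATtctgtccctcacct
Fzd1: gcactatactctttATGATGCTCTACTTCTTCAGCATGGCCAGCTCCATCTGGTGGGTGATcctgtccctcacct
The second pair is chr11:102606046-102606120 and chr1:59484280-59484354, both on the plus strand.
Fzd2: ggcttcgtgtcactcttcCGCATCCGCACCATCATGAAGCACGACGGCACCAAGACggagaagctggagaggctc
Fzd7: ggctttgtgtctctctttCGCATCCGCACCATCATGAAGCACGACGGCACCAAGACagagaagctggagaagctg
In the first pair 73 of 75 bases were identical and in the second 69 of 75. None of the 3589 windows of 75 bases in the Fzd2 transcript occurred in a transcript of another gene on either strand. Nkd2 shared none of its 4969 windows either. Wnt4 shared 51 of 4107 (1.24%) with transcripts of 25 other genes in the same sense.

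The Fzd2 row was lower in every NT3 limb than in any Ctrl limb. In non-loaded Ctrl limbs it stood at 31.8, 43.2, 35.6 and 52.9 CPM, and in non-loaded NT3 limbs at 6.53, 7.91, 6.45 and 7.47. In loaded limbs the values were 44.1, 52.4, 47.1 and 23.7 in Ctrl and 6.46, 18.2, 15.8 and 5.61 in NT3, with mice in the same order. The NT3 libraries held 4 to 13 fragments of the row and the Ctrl libraries 21 to 53. The fitted log2 difference, NT3 over Ctrl, was -2.52 (SE 0.34) without load, which is 5.72-fold lower, and -1.87 (SE 0.37) with load. Across all rows tested, 0.579% were called different between genotypes without load (36 of 6220, edgeR's quasi-likelihood test with Benjamini-Hochberg adjusted p below 0.05) and 2.65% with load (161 of 6080). The ranges of the genotypes did not overlap in 3.95% of rows without load and in 7.6% with load. With a covariate for marrow marker rows the Fzd2 difference was -2.64 without load and -2.05 with load.

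No loading change of the Fzd2 row passed the test. The row held 5 to 7 fragments in non-loaded and 4 to 13 in loaded NT3 limbs, and it passed the count filter through the Ctrl libraries. At these counts the tests that use NT3 limbs cannot decide whether load changed the row there. The log2 change from non-loaded to loaded limb was 0.01 in Ctrl (SE 0.29, adjusted p = 0.99) and 0.61 in NT3 (SE 0.44, adjusted p = 0.849). It was higher in the loaded limb of 3 of 4 Ctrl and 2 of 4 NT3 mice. Ctrl mouse 4 ran against the other Ctrl mice, with a loaded to non-loaded ratio of 0.448. In NT3, mice 2 and 3 had ratios of 2.3 and 2.45, on counts of at most 13 fragments. The loading changes did not differ between genotypes by the test (0.60, SE 0.53, adjusted p = 0.92), and 0.139% of rows were called in that comparison (10 of 7192). The genotype difference that chose the row involves the same limbs, so these tests are not independent of that choice.

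**Figure D1:**
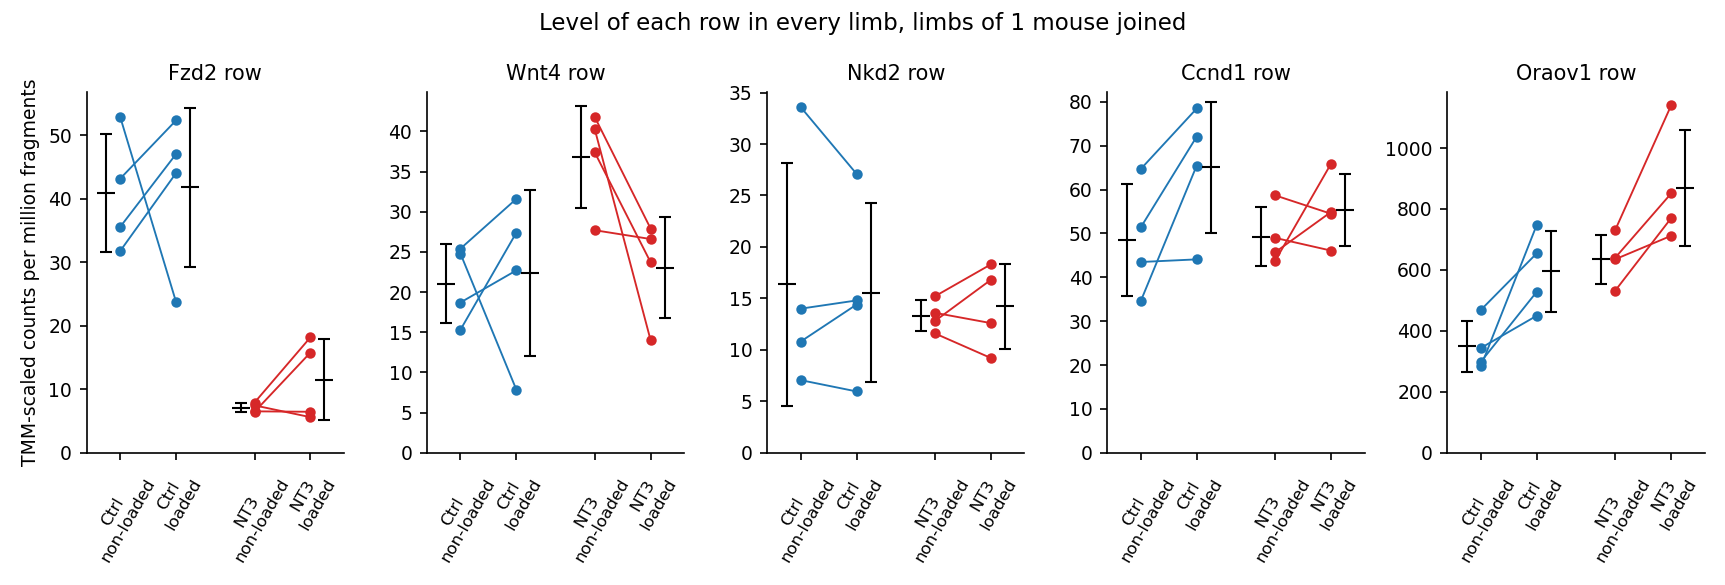
Level of each of the 5 rows in all 16 limbs, in CPM on a linear axis from 0. Points are limbs, lines join the limbs of 1 mouse, and black bars are the mean and SD of 4 limbs. The Fzd2 points of NT3 lie below all Ctrl points, and all 8 Oraov1 lines slope upward.

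Among receptor rows read by name, Fzd2 was the fullest in Ctrl. In NT3 it was not, with 7.09 CPM against 8.07 for Fzd5 in non-loaded limbs and 11.5 against 11.7 for Fzd7 in loaded limbs, differences within the spread. The rows named for the other 9 frizzled genes held at most 16 fragments in a library, and those of the co-receptors Lrp5 and Lrp6 at most 6. Fzd7 was the other receptor row tested for loading. It averaged 6.34 ± 4.57 CPM in non-loaded and 11.3 ± 4.2 in loaded Ctrl limbs, and 4.72 ± 2.19 and 11.7 ± 3.8 in NT3 (mean ± SD, n = 4). Its averaged loading change was 1.09 (SE 0.40, adjusted p = 0.116), and the row was higher in the loaded limb of 3 of 4 Ctrl and 4 of 4 NT3 mice. Gm38058, opposite Fzd5, averaged 197 fragments in a library, more than Fzd2, and was called in no comparison (averaged loading change -0.08, SE 0.099, adjusted p = 0.788). With both limbs of a mouse summed, none of the other 3 receptor rows tested by name differed between genotypes (Fzd5, Fzd7 and Lgr4), where 1.98% of all rows were called (171 of 8626) and where no receptor row reached an unadjusted p below 0.05.

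Wnt4 is the ligand row, at chr4:137277489-137299726 on the plus strand, and no gene lies opposite its exons. In non-loaded limbs it had 15.3, 18.7, 24.8 and 25.4 CPM in Ctrl and 40.3, 41.8, 37.4 and 27.7 in NT3, so that these groups did not overlap, as in 3.95% of rows. In loaded limbs the genotypes overlapped, with 27.4, 22.7, 7.85 and 31.6 in Ctrl and 14.0, 27.9, 23.7 and 26.6 in NT3. The log2 difference between genotypes was 0.78 without load (SE 0.29), a 1.72-fold difference that did not pass over all rows (adjusted p = 0.406), and 0.01 with load (adjusted p = 0.998). In NT3 the row was lower in the loaded limb of all 4 mice, with ratios of 0.348, 0.669, 0.633 and 0.960. That direction in all 4 NT3 mice was seen in 7.2% of rows. The loading change in NT3 was -0.69 (SE 0.32, adjusted p = 0.629), where 0.417% of rows were called (30 of 7192), and in Ctrl it was 0.05 (SE 0.34, adjusted p = 0.969). The difference between these changes was -0.75 (SE 0.47) and did not pass (adjusted p = 0.857).

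Of 19 ligand genes, 2 had a row with enough fragments in the single-limb comparisons, Wnt4 and Wnt2b, and neither was called. Wnt2b averaged 72.3 ± 17.3 CPM in non-loaded and 82.2 ± 7.8 in loaded Ctrl limbs, and 71.6 ± 12.9 and 61.8 ± 6.31 in NT3 (mean ± SD, n = 4). Gm2670, opposite Wnt5a, a ligand known for beta-catenin-independent signalling, averaged 12 fragments and had a loading change of 0.66 (SE 0.30, adjusted p = 0.264). No row of the 6 genes for Wnt secretion and R-spondin agonists passed the filter, and none of them held more than 6 fragments in a library.

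Nkd2, the intracellular inhibitor, lies at chr13:73818534-73847631 on the minus strand. Its row had 7.06, 14.0, 10.8 and 33.6 CPM in non-loaded Ctrl limbs and 15.2, 13.6, 11.6 and 12.8 in non-loaded NT3 limbs. In loaded limbs it had 5.96, 14.8, 14.4 and 27.1 in Ctrl and 18.3, 12.6, 9.21 and 16.8 in NT3. All NT3 values lay inside the Ctrl range in either limb. Ctrl mouse 4 was the highest and Ctrl mouse 1 the lowest among Ctrl in both limbs. The log2 difference between genotypes was -0.32 without load (SE 0.42, adjusted p = 0.932) and -0.13 with load (SE 0.44, adjusted p = 0.954). The loading change was -0.03 in Ctrl (SE 0.38, adjusted p = 0.984) and 0.09 in NT3 (SE 0.39, adjusted p = 0.99). At 5 to 33 fragments in a library these errors leave room for sizeable changes in either direction.

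A row inside Nkd2 was called higher with load, in Ctrl and on average. Gm8062, a processed pseudogene of 444 bases on the plus strand at chr13:73829932-73830375, sits in an Nkd2 intron of 19974 bases and touches none of its exons. It had 3.53, 4.67, 1.08 and 5.09 CPM in non-loaded and 17.9, 15.8, 35.3 and 19.2 in loaded Ctrl limbs. The NT3 values were 3.27, 10.2, 3.87 and 2.13 without load and 19.4, 22.4, 5.27 and 4.21 with load. All 8 mice were higher in the loaded limb, as in 2.57% of rows (185 of 7192). The row averaged 9.12 fragments in a library. It held 1 to 5 in non-loaded and 15 to 27 in loaded Ctrl limbs, and 2 to 9 and 3 to 18 in NT3. It passed the count filter through the loaded limbs, where it was high, so its loading test is not independent of that filter. The log2 change was 2.52 in Ctrl (SE 0.53, adjusted p = 0.0015), where 4.07% of rows were called (293 of 7192), and 1.36 in NT3 (SE 0.57, adjusted p = 0.529). The change averaged over genotypes was 1.94 (SE 0.39, adjusted p = 7.9e-04). Without Ctrl mouse 3 the Ctrl change was 1.96 with an adjusted p of 0.0823. Of its 370 windows of 75 bases, 21 (5.68%) also occur in Rpl17 or related pseudogenes, and their part in its counts was not tested. With the marrow covariate the changes were 2.24 in Ctrl (adjusted p = 0.636) and 1.77 averaged (adjusted p = 0.511).

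Slc12a7, a potassium-chloride cotransporter gene whose row was named after its values were seen, ends 1780 bases from Nkd2 on the plus strand. Its loaded limbs were also higher on average, from 11.1 ± 5.43 to 30.4 ± 14.9 CPM in Ctrl and from 10.2 ± 3.05 to 21.3 ± 6.28 in NT3 (mean ± SD, n = 4). The averaged change was 1.23 (SE 0.26, adjusted p = 0.0017) and was positive in all 8 mice, as in 2.57% of rows. In Ctrl alone it was 1.41 (SE 0.37, adjusted p = 0.0145), and it did not pass without Ctrl mouse 1 (1.18, adjusted p = 0.175), mouse 3 (1.4, 0.0891) or mouse 4 (1.52, 0.0503), or in DESeq2 (1.42, 0.0704). In NT3 alone it was 1.06 and did not pass (SE 0.38, adjusted p = 0.386). With the marrow covariate the averaged change fell to 0.45 (adjusted p = 0.898). The Slc12a7 row held 5 to 18 fragments in non-loaded and 9 to 38 in loaded Ctrl limbs. Like Gm8062, it did not pass the count filter in non-loaded limbs alone. Near Fzd2 no row was called. Gpatch8, 48004 bases away, had an averaged change of -0.29 (SE 0.17, adjusted p = 0.438), and the other 3 rows within 50 kb held at most 1 fragment.

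Ccnd1 and Oraov1 overlap tail to tail. Ccnd1 lies at chr7:144929931-144939925 on the minus strand and Oraov1 at chr7:144915100-144931701 on the plus strand. Their exons share 1100 bases in 2 blocks of 818 and 282 bases, which is 23.4% of the exon bases of Ccnd1 and 15.6% of those of Oraov1. None of the shared bases is coding in Ccnd1, and 105 are coding in an annotated Oraov1 transcript. Fragments from these blocks fit both rows once strand is ignored, and 955 of the 4632 Ccnd1 windows of 75 bases (20.62%) occur in Oraov1 in antisense. Outside the blocks no exon base of Ccnd1 lies in an Oraov1 exon.

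**Figure D2:**
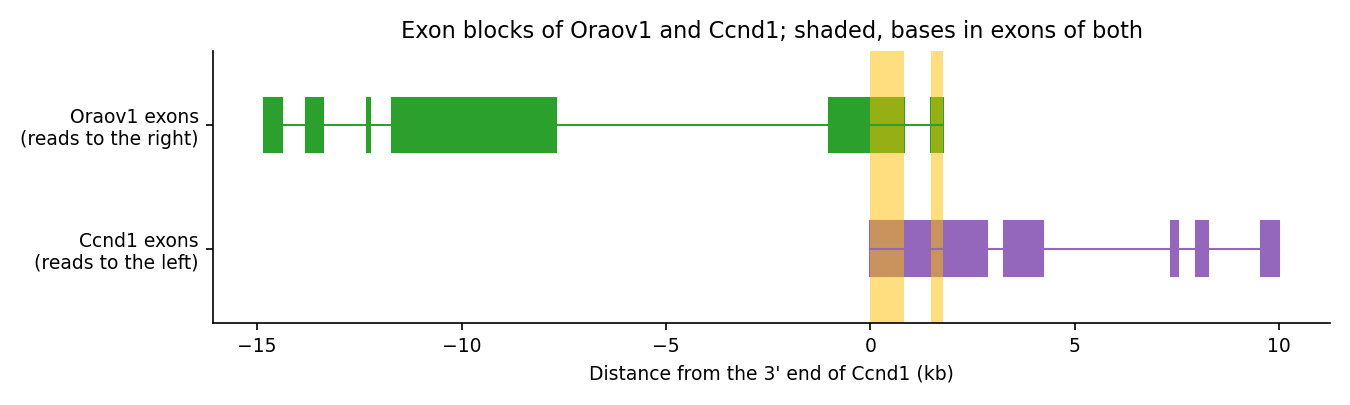
Exon blocks of Oraov1 and Ccnd1, to scale, by distance from the 3' end of Ccnd1 in kb. Shaded bands are the 818 and 282 bases that lie in exons of both genes, at the 3' end of each.

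No change of the Ccnd1 row passed the test, though its mean in Ctrl was 48.6 CPM without load and 65.1 with load. It had 43.5, 51.4, 64.7 and 34.6 CPM in non-loaded Ctrl limbs, 44.1, 72.1, 78.5 and 65.5 in loaded Ctrl limbs, 45.7, 58.7, 49.0 and 43.7 in non-loaded NT3 limbs and 54.9, 54.5, 46.1 and 65.9 in loaded NT3 limbs. The groups overlapped throughout. All 4 Ctrl mice were higher in the loaded limb, by ratios from 1.01 to 1.89, as were 11.7% of rows, while 2 of 4 NT3 mice were. The loading change was 0.43 in Ctrl (SE 0.22, adjusted p = 0.346), 0.17 in NT3 (SE 0.22, adjusted p = 0.942) and 0.30 averaged (SE 0.15, adjusted p = 0.348). Between genotypes the log2 difference was 0.01 without load (SE 0.24, adjusted p = 0.998) and -0.23 with load (SE 0.22, adjusted p = 0.753). These errors leave room for moderate changes of the row.

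The Oraov1 row was much fuller, and it rose with load. It held 469, 299, 344 and 284 CPM in non-loaded Ctrl limbs and 655, 529, 450 and 749 in the loaded limbs of the same mice. In NT3 the non-loaded limbs had 731, 640, 635 and 532 and the loaded limbs 1140, 851, 712 and 770. Each of the 8 mice was higher in the loaded limb, by ratios of 1.4, 1.77, 1.31 and 2.64 in Ctrl and 1.56, 1.33, 1.12 and 1.45 in NT3. That was so of 2.57% of rows (185 of 7192). The log2 change was 0.77 in Ctrl (SE 0.13, adjusted p = 6.5e-05), which is 1.71-fold, and 0.61 averaged over genotypes (SE 0.092, adjusted p = 7.5e-06), where 4.39% of rows were called (316 of 7192). In NT3 it was 0.44 (SE 0.13, adjusted p = 0.141), or 1.36-fold. Without Ctrl mouse 4 the NT3 change was 0.44 with an adjusted p of 0.0331. The changes of the genotypes did not differ by the test (-0.33, SE 0.18, adjusted p = 0.807). The non-loaded limbs, whose genotype difference chose the row, are also the baseline of these changes. That choice favours a larger change in Ctrl and a smaller one in NT3. The tests within a genotype and between genotypes are therefore not independent of it.

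Summed marker rows of other cells also stood at different levels in the limbs. The 6 rows opposite marrow myeloid and erythroid genes, 5 of them with fragments, summed to 5020 to 11400 CPM in non-loaded and 4070 to 6170 in loaded Ctrl limbs, and to 5980 to 8430 and 4730 to 6200 in NT3. The 13 rows named for those genes all held fragments and summed to 187 to 264 CPM across the 4 groups. The 3 rows opposite osteoblast genes summed to 733 to 1340 CPM in non-loaded and 3800 to 5790 in loaded Ctrl limbs. In NT3 they summed to 916 to 1820 and 2170 to 4190. With marrow marker rows as a covariate the Oraov1 change was 0.86 in Ctrl and 0.66 averaged, and it no longer passed (adjusted p = 0.125 and 0.0561). The part of the marrow and osteoblast rows in the result was not tested.

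Between genotypes, described without a test, Oraov1 was higher in NT3 by a log2 difference of 0.85 without load (SE 0.16). There the ranges 284 to 469 and 532 to 731 CPM did not overlap, as in 3.95% of rows, and this difference was what chose the row. With load the difference was 0.54 (SE 0.16), and the ranges of 450 to 749 and 712 to 1140 overlapped. The 4 rows opposite B cell genes, all with fragments, were also higher in NT3 when summed. They stood at 446 to 715 against 204 to 385 CPM without load and 424 to 690 against 166 to 220 with load. The 7 rows named for B cell genes summed to 292 to 365 in NT3 against 217 to 239 in Ctrl without load. With load they overlapped, at 292 to 340 in NT3 and 282 to 383 in Ctrl. The part of either set in the Oraov1 difference was not tested. With the marrow covariate the Oraov1 differences were 0.97 and 0.63.

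**Figure D3:**
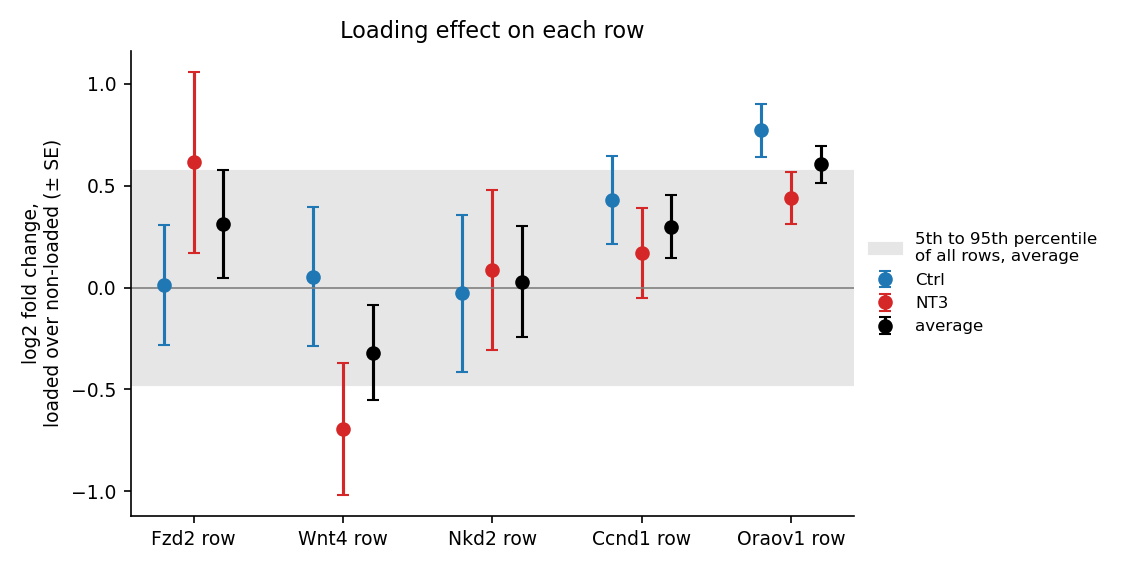
Log2 fold change of the 5 rows from non-loaded to loaded limbs, with SE, in Ctrl, in NT3 and averaged. The grey band spans the 5th to 95th percentile of the averaged change over all 7192 rows. The averaged Oraov1 value of 0.61 lies just above the band, and the averaged values of the other 4 rows lie inside it.

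Per length, Oraov1 stood above the other 4 rows in every group. It averaged 86.7 CPM per kb over the 16 libraries (SD 31.5) and Ccnd1 11.6 (SD 2.56). In non-loaded Ctrl limbs Fzd2 and Ccnd1 were next to each other in order and did not differ beyond their spread (11.2 ± 2.54 and 10.3 ± 2.71 CPM per kb, n = 4), followed by Wnt4 (5.02 ± 1.16) and Nkd2 (3.46 ± 2.50), whose ranges overlapped. In non-loaded NT3 limbs the order was Oraov1 (89.9 ± 11.5), Ccnd1 (10.5 ± 1.41), Wnt4 (8.77 ± 1.51), Nkd2 (2.81 ± 0.319) and Fzd2 (1.94 ± 0.196).

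Other Wnt target genes were read in the same way, by their own row and by the row opposite. By name, 8 of 18 target rows were tested for loading and none was called in either genotype or on average. By the row opposite, 5 were tested and 3 were called higher in the averaged comparison, Oraov1, Gm43126 and Gm11670, against 3.24% of all rows called higher (233 of 7192). In Ctrl 2 were called higher, Oraov1 and Gm43126, against 3.07% (221 of 7192). In NT3 none was, with 3 at an unadjusted p below 0.05, as were 546 of all 7192 rows. The median averaged change of the 5 rows was 0.49, against -0.02 over all rows. Oraov1 is one of the 5 and was itself chosen from these data. The lists were also drawn up with earlier results of these data known. The count of 3 of 5 is therefore no test of the target list. With the marrow covariate none of them was called, and calls over all rows in the averaged comparison fell from 316 to 46. The part of marrow in these changes was not tested. With that covariate Gm43126 had 0.96 in Ctrl (SE 0.27, adjusted p = 0.11) and 0.62 averaged (SE 0.19, adjusted p = 0.137), and Gm11670 had 1.23 averaged (SE 0.47, adjusted p = 0.386).

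The Gm43126 row lies opposite Ccnd2, the gene of cyclin D2. It held 186, 118, 126 and 138 CPM in non-loaded and 244, 181, 212 and 289 in loaded Ctrl limbs. The NT3 limbs had 173, 206, 206 and 166 without load and 236, 253, 203 and 170 with load. In Ctrl it rose by 0.71 (SE 0.14, adjusted p = 6.9e-04) and was higher in the loaded limb of all 4 mice, as were 11.7% of rows. In NT3 it was higher in 3 of 4, and the change of 0.19 did not pass (SE 0.14, adjusted p = 0.853). The difference between genotypes in this change was -0.51 (SE 0.20, adjusted p = 0.61). The Ccnd2 row itself averaged 13.1 fragments and had an averaged change of -0.03 (SE 0.28, adjusted p = 0.979).

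Gm11670 lies opposite Axin2, a feedback inhibitor that is a widely used readout of beta-catenin signalling and whose own row held at most 3 fragments. Its values were 16.5, 18.7, 14.0 and 23.4 CPM in non-loaded and 20.3, 27.7, 23.5 and 27.1 in loaded Ctrl limbs, and 18.5, 7.91, 7.74 and 10.7 against 33.4, 32.1, 17.1 and 18.2 in NT3. All 8 mice were higher in the loaded limb, as in 2.57% of rows. The averaged change was 0.80 (SE 0.24, adjusted p = 0.047), a call that was lost without any of the mice except NT3 mouse 4 (adjusted p = 0.0547 to 0.165 without each of the others). It was also lost in DESeq2 (adjusted p = 0.15), without the filter (0.195) and with no replicate block (0.0733). Gm43352, opposite the transcription factor gene Lef1, had an averaged change of 0.49 (SE 0.22, adjusted p = 0.263) and was higher in the loaded limb of 3 of 4 Ctrl and 4 of 4 NT3 mice. Junos, opposite Jun, had 0.02 (SE 0.15, adjusted p = 0.974).

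**Figure D4:**
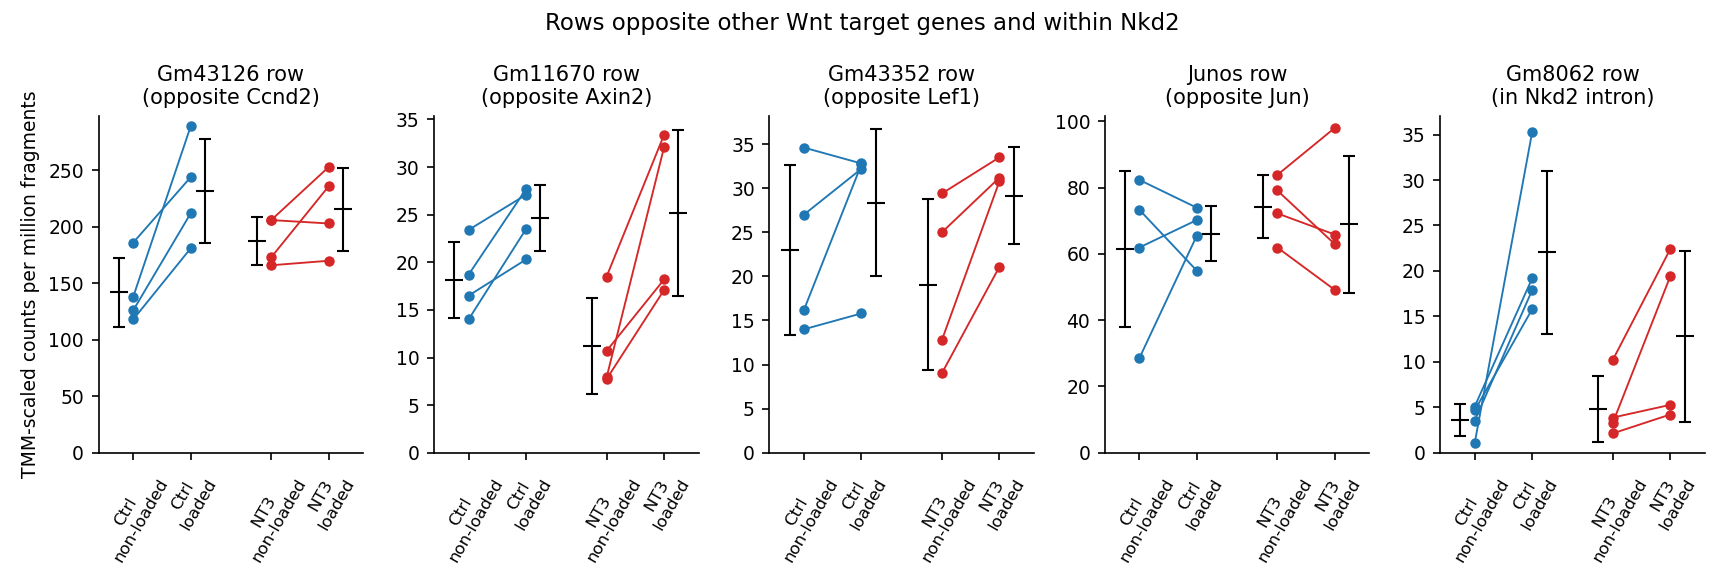
CPM, on linear axes from 0, of the rows opposite Ccnd2, Axin2, Lef1 and Jun and of the Gm8062 row in the Nkd2 intron. Points are limbs joined by mouse and black bars are mean and SD of 4 limbs. The Gm11670 and Gm8062 rows are higher in the loaded limb of all 8 mice.

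Secreted inhibitors gave the genotype calls among the Wnt lists. Sost, which encodes the osteocyte inhibitor sclerostin, had 28.2, 30.4, 50.7 and 46.8 CPM in non-loaded and 23.9, 44.5, 37.9 and 14.7 in loaded Ctrl limbs, against 21.8, 30.5, 28.4 and 9.60 and then 4.31, 12.6, 11.8 and 19.6 in NT3. With both limbs summed it was lower in NT3 by a log2 difference of -1.02 (SE 0.24, adjusted p = 0.0176), where 0.846% of rows were called lower (73 of 8626). Neither limb alone passed (-0.81, adjusted p = 0.482, and -1.35, adjusted p = 0.0756). The summed call did not pass without Ctrl mouse 2 (-0.97, adjusted p = 0.0673), Ctrl mouse 3 (-0.87, 0.128), NT3 mouse 1 (-0.89, 0.0799) or NT3 mouse 4 (-0.91, 0.0804). No other inhibitor row was tested by name. Osteocyte marker rows, of which Sost is 1, also had negative NT3 differences. In loaded limbs 3 of 3 tested rows of the 6 had a negative difference with an unadjusted p below 0.05. Over all rows 808 of 6080 had such a p, in either direction. None of the 3 was called (median -0.64, against 0.00 over all rows). In non-loaded limbs all 3 were negative and 1 had an unadjusted p below 0.05 (median -0.25, against -0.01). With limbs summed 4 of 4 were negative and 1, Sost itself, was called (median -0.39, against -0.01). The 6 rows summed to 193 to 272 CPM in non-loaded and 229 to 313 in loaded Ctrl limbs, and to 140 to 263 and 140 to 281 in NT3. Their part in the Sost difference was not tested.

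Gm26771 lies opposite Sfrp2, which encodes a secreted frizzled-related protein. It had 24.7, 52.6, 34.5 and 48.8 CPM in non-loaded and 71.6, 69.2, 26.2 and 54.2 in loaded Ctrl limbs. NT3 limbs had 22.9, 29.4, 27.1 and 20.3 without load and 20.5, 25.2, 27.6 and 9.81 with load. The row was lower in loaded NT3 limbs by -1.42 (SE 0.32, adjusted p = 0.007), where 1.33% of rows were called lower (81 of 6080), and in summed limbs by -1.06 (SE 0.23, adjusted p = 0.0073). In non-loaded limbs the difference was -0.70 (SE 0.29) and did not pass (adjusted p = 0.524). The summed value was -0.91 without Ctrl mouse 2 (adjusted p = 0.0606), and the loaded value with the marrow covariate was -1.19 (adjusted p = 0.209). The 2 rows opposite Notum, whose enzyme inactivates Wnt proteins, were called in no comparison.

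Among intracellular components, by name 6 to 10 of 24 rows were tested in a comparison and none was called. By the row opposite, 10 or 11 were tested and the call was Gm13066, opposite the beta-catenin inhibitor gene Ctnnbip1, with load in Ctrl (0.61, SE 0.18, adjusted p = 0.0398). That call was lost without Ctrl mouse 2 (0.43, adjusted p = 0.374), Ctrl mouse 3 (0.63, 0.136), Ctrl mouse 4 (0.60, 0.098) or NT3 mouse 3 (0.61, 0.0507). It was also lost in DESeq2 (adjusted p = 0.154), without the filter (0.0888) and with no replicate block (0.1425). With the marrow covariate the change was 1.30 (SE 0.34, adjusted p = 0.0593). Ulk4, opposite the beta-catenin gene Ctnnb1, averaged 1388 fragments. Its loading change was 0.23 in Ctrl (SE 0.11, adjusted p = 0.336), higher in the loaded limb of 4 of 4 mice, as were 11.7% of rows. In NT3 it was -0.19 (SE 0.11, adjusted p = 0.759), higher in 1 of 4. The changes of the 2 genotypes average to 0.02 (SE 0.079, adjusted p = 0.961). The difference between these changes was -0.42 (SE 0.16) and did not pass (unadjusted p = 0.011, adjusted p = 0.582).

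**Figure D5:**
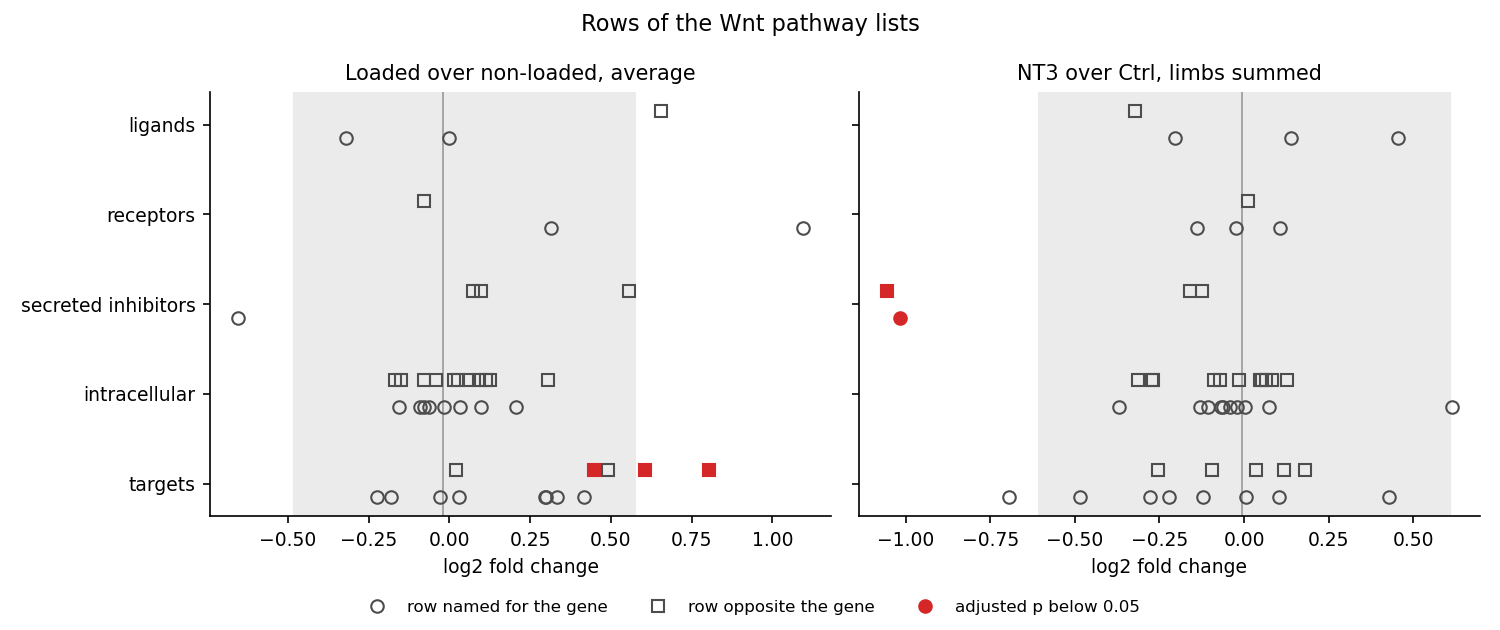
Log2 fold changes of all tested rows of 5 Wnt lists, for load averaged over genotypes and for NT3 over Ctrl with limbs summed, without Fzd2 and Oraov1 in the genotype panel. Circles are rows named for the gene, squares rows opposite it, red fill marks an adjusted p below 0.05, and grey bands span the 5th to 95th percentile of all rows. The red squares of the load panel are all target rows, and the red symbols of the genotype panel are Sost and Gm26771.

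The rows most like each member were found by Pearson correlation of log2(CPM + 1) over the 16 libraries, which share their groups, among about 4113 rows averaging at least 20 fragments. Fzd2 was most like Numb, opposite Gm46367 (r = 0.868), Gm17140, opposite the thyroglobulin gene Tg (0.858), and Gm16277, opposite the neurotrophic-factor receptor gene Gfra1 (0.849). Oraov1 was most like Prune2 (0.919), Oxa1l, opposite the amino acid transporter gene Slc7a7 (0.872), and Unc13a, opposite the collagen galactosyltransferase gene Colgalt1 (0.851). For Ccnd1 these were Gm10657, opposite the immune checkpoint gene Cd276 (0.806), 1700034J05Rik (0.775) and Zrsr2 (0.755). Wnt4 was nearest to Itpr3os, opposite Itpr3 (0.762), Gcfc2, opposite Mrpl19 (0.748), and Sec62, opposite 4933429H19Rik (0.742). For Nkd2, the rows given are Gm12266 (0.728) and Gm26626, opposite Runx1 (0.723). Between members r ran from -0.665 for Fzd2 with Oraov1 to 0.205 for Wnt4 with Oraov1, and Ccnd1 with Oraov1 gave 0.172. Fzd2 and Oraov1 were chosen on genotype differences of opposite sign, so a negative r between them follows from that choice.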

How the data were processed

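Per the labels, ribosome-depleted total RNA (mean RNA integrity number 5.4) was randomly primed and sequenced single-end. The deposited values are fragment counts per gene row with a row length. Per the submitters' processing notes, the authors used mm10, STAR 2.4.2a, featureCounts 1.4.6 of Subread, and DESeq2. No annotation release is stated in the sources used here. Of 47517 rows, 45145 were placed on GENCODE M21 (GRCm38) by symbol and 604 by an older symbol. A row is opposite a gene when their exons overlap by at least 20 bases on the other strand.

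Counts were filtered with filterByExpr (minimum 10), scaled by TMM and tested with robust quasi-likelihood F tests in edgeR 4.0.16 (R 4.3.3). Genotype fits used 8 libraries of separate mice, or summed limbs of each mouse. Loading fits used 16 libraries with mouse as a block. Mice are numbered in accession order within a group. Limbs were paired by the mouse identifiers in the sample titles, as the design text describes paired limbs, and deviations of the limbs of a mouse correlated at 0.0441 to 0.171. Means of CPM are over 4 libraries from separate mice. Scripts were tested on simulated data with 200 changed rows. Alternatives were RLE scaling, no filter, DESeq2 1.42.0, each mouse left out, a marrow covariate, no block and 1 fit of 16 libraries.

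Members and gene lists were chosen with earlier results of these data known. Named rows were the members, list rows called in any comparison or else the smallest p of a list, rows within 50 kb, and the 3 rows most like each member, of which 1 is not reported here.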

Additional observations from a re-analysis of the deposited data

How the results depend on the processing

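Of the members' fold changes under the alternatives, 447 kept their side of the threshold or stayed within the spread of replicates, 2 lost a call and 1 gained a call, and none reversed. The only member calls to lose were those of Oraov1 with load, in Ctrl and averaged, so most of the 447 were results that stayed uncalled. The genotype values of Fzd2 and Oraov1 had no test and were only held against the spread. The losses were Oraov1 with the marrow covariate and the gain was Oraov1 in NT3 without Ctrl mouse 4, all given above. For the other named rows, tested under the same settings after seeing the data, 565 kept their side, 36 lost a call and 3 gained one. Calls over all rows moved more. Between genotypes without load, 36 rows were called, 71 without the filter, 71 with the marrow covariate and 12 to 77 with each mouse left out (12 without Ctrl mouse 2, 14 without NT3 mouse 3, 20 without Ctrl mouse 3, 77 without Ctrl mouse 1). With load, 161 became 78 with the marrow covariate. With limbs summed, 171 became 88 to 209 when a mouse was left out (88 without NT3 mouse 3, 91 without Ctrl mouse 2). For load in Ctrl, 293 became 169 in DESeq2, 46 with the marrow covariate, 171 with no replicate block and 163 to 325 with each mouse left out (163 without Ctrl mouse 2, 188 without Ctrl mouse 3). For load in NT3, 30 became 19 in DESeq2, 5 with no replicate block and 17 to 44 with each mouse left out (17 without NT3 mouse 1). Averaged over genotypes, 316 became 197 in DESeq2, 46 with the marrow covariate and 205 with no replicate block. For the difference in loading changes, 10 became 17 without the filter and 0 with no replicate block. The cause of these shifts was not tested. Without the block the Oraov1 change in Ctrl still passed (adjusted p = 0.0048). The limbs of Ctrl mouse 4 correlated less with each other (0.0441) than with a limb of another mouse (0.143). Depth limits the Fzd2, Wnt4 and Nkd2 rows, which held 4 to 53 fragments in a library.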
